A study of Mus musculus with 4 samples.

Results

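The ligands of the epidermal growth factor (EGF) receptor other than neuregulins, and the proteins that release them from the cell surface, were followed in liver RNA of mice lacking Nrg4, itself a ligand of the same family. The list held 10 genes: the ligands Egf, Tgfa, Hbegf, Areg, Ereg, Btc and Epgn, the proteases Adam10 and Adam17, and Rhbdf2. A gene was measured when the platform annotation paired a probe set with its symbol alone, and where several did so, the brightest of them by its mean over the arrays stood for the gene. By that rule 9 of the 10 were measured, among 22180 genes in all. Areg had no such probe set and was not analysed here.

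Male wild type (WT) mice and Nrg4 knockout (KO) mice were compared. All of them, controls included, ate a diet that causes non-alcoholic steatohepatitis (NASH diet, Research Diets D09100301) over 20 weeks, beginning when they were 3 months old, and had free access to food until the livers were collected. No comparison with a normal diet was made. RNA was pooled before hybridization to Affymetrix Mouse Gene ST 2.1 arrays, and the 4 arrays comprised 2 pools of each genotype. How many animals entered a pool, the strain, the way Nrg4 was disrupted and the tissue in which it was lost are not stated in the labels, and p-values measure the spread between pools.

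The 7 ligands are made as membrane-spanning precursors with an EGF-like domain outside the cell, and a protease must cut most of them free before they can act at a distance. ADAM17 is the main sheddase of TGF-alpha, HB-EGF, amphiregulin, epiregulin and epigen, and ADAM10 that of EGF and betacellulin. Rhbdf2 encodes iRhom2, a catalytically inactive relative of the rhomboid proteases that escorts ADAM17 to the cell surface and steers its substrate choice. In the liver the EGF receptor is abundant on hepatocytes, where its ligands drive proliferation after injury or tissue loss. Neuregulins bind the related receptors ErbB3 or ErbB4 instead, and Nrg4 binds ErbB4.

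A feature that the choice of genes did not use is where they lie. In the RefSeq gene table, Epgn, Ereg, Areg and Btc follow one another on mouse chromosome 5 with no other protein-coding gene between them, while the other 6 listed genes have no listed gene next to them. The RefSeq promoter table (build GRCm38.p6) held 7 of the 10 genes and lacked Hbegf, Ereg and Rhbdf2. The 130 bases before the annotated start are shown for Egf (the outer of its 2 annotated starts in the table), which had the smallest p among the measured genes, and for the 3 neighbours on chromosome 5 that the table holds, so that the clustered ligands can be set side by side. They lie at chr3:129755323-129755452 on the minus strand for Egf, chr5:91027387-91027516 on the plus strand for Epgn, chr5:91139469-91139598 on the plus strand for Areg and chr5:91402995-91403124 on the minus strand for Btc. Each is written 5′ to 3′ along the gene, and capitals mark the motifs listed after them.
Egf: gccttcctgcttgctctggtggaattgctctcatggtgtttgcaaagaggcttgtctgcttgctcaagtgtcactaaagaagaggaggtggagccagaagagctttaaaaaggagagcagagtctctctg
Epgn: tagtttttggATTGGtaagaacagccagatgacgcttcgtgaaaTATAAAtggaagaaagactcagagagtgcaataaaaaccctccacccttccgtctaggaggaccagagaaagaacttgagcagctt
Areg: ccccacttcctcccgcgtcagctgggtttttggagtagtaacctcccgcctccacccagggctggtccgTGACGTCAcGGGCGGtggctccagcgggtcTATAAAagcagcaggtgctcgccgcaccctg
Btc: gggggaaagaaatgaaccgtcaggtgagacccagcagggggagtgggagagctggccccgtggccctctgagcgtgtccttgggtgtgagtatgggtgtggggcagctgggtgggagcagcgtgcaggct

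The motifs were searched on both strands in the 250 bases before each start, and no hits of different motifs overlapped in the sequences shown. They were TATAAA for the TATA box, TGANTCA for the AP-1 element, TGACGTCA for the cAMP response element, GGGCGG for the GC box and CCAAT for the CCAAT box. Of 32536 different promoter windows of that length in the table, 12.3% held the TATA box, 6.73% the AP-1 element, 1.56% the cAMP response element, 33.0% the GC box and 33.8% the CCAAT box. The Areg window held a cAMP response element that begins 61 bases before the start, a GC box at 52 bases and a TATA box at 31 bases. The Epgn window held a CCAAT box, on the opposite strand, at 120 bases and a TATA box at 86 bases. The window of Btc and the outer window of Egf held none of the 5 motifs in these letters. Among the windows not printed, GC boxes lay 126 and 15 bases before the Tgfa start, 75 bases before that of Adam17 and 238, 119 and 114 bases before that of Adam10, where CCAAT boxes lay at 225 and 81 bases. Of the clustered ligands, Areg and Epgn thus both held a TATA box, at different distances, and no motif of this set was in all 3 windows. A match is a run of letters and not a measured binding site.

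The values are the deposited log2 expression values. Their zero point is unknown, with array medians between 0.52 and 0.64, so a level is read only against the same gene on the other arrays. The median of all probe sets, 0.54, served as a limit for dim genes, and 12458 genes with a mean at or above it were tested by limma, a linear model that shares information on the spread across genes. KO minus WT was called at an adjusted p (Benjamini-Hochberg over all tested genes) under 0.05. At that threshold 6 genes were called (0.0482% of those tested), and at an unadjusted p under 0.05 there were 1282 (10.3%). The pools of the genotypes did not overlap in 41.7% of tested genes, 22.2% with KO higher and 19.5% with KO lower. With 2 pools a side, no exact permutation test can pass 0.05.

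The label of the knockout was checked on Nrg4 itself. Nrg4 read 2.54 in WT pool 1, 2.30 in WT pool 2 and 0.93 in each KO pool. Both KO values lay below both WT values, and the difference was -1.49 ± 0.20 (SE; limma, adjusted p = 0.181). Nrg4 was thus lower in KO but not called, and limma with a variance that follows intensity did not call it either. The labels do not say which part of Nrg4 was disrupted, so the probe set may lie outside it. The Nrg4 value in KO pool 1 was shared with 300 other probe sets of that array, among them those of Tspan17 and Krt7, and its value in KO pool 2 with none. The tissue label was checked on hepatocyte genes: albumin (Alb) lay at 10.9 in WT and 10.8 in KO, and all 12 hepatocyte markers were above the limit for dim genes.

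Of the measured ligands and shedding proteins, none differed between the genotypes past the adjusted threshold. Of the 9, 7 passed the limit for dim genes, 4 ligands and all 3 shedding proteins. Ereg and Epgn did not, and their values come from a fit of all 22180 genes, of which 0.0316% were called and 7.85% had an unadjusted p under 0.05. Neither of the 2 had such a p. Egf and Hbegf passed through 1 genotype alone, WT for Egf and KO for Hbegf, since the mean of the other genotype lay below the limit. Among the 7, 0 were called by limma and 1, Egf, had an unadjusted p under 0.05 (14.3%, against 10.3% of all tested genes). The pools did not overlap in 5 of the 7 (71.4%, against 41.7% of all tested genes), with KO higher in Btc, Hbegf, Adam10 and Rhbdf2 and lower in Egf. Egf and Hbegf, which passed the limit through 1 genotype alone, are both counted in that share, so it leans on the filter. The median difference of the 7 was 0.27, where that of all tested genes was 0.01, and 6 of the 7 had a KO mean above the WT mean.

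**Figure D1:**
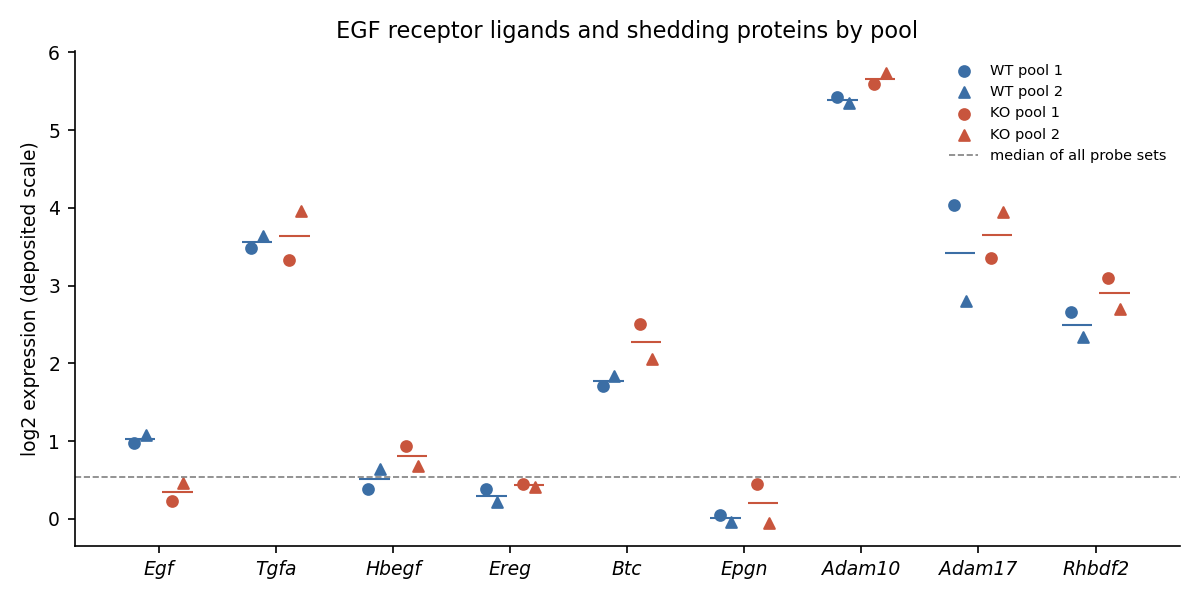
Log2 expression (deposited scale, vertical axis) of the 9 measured genes in the 4 pools, with circles for pool 1, triangles for pool 2, short lines for the mean of a genotype and a dashed line at the median of all probe sets (0.54). Egf sits lower in both KO pools (0.23 and 0.46) than in both WT pools (0.98 and 1.08), Adam17 is spread widest in WT, and levels of different genes cannot be compared.

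Egf was the 1 measured ligand with a lower level in the KO livers. It encodes the precursor of EGF itself, a long membrane protein with many EGF-like repeats of which the last before the membrane is the mature growth factor. Its log2 level was 0.98 in WT pool 1, 1.08 in WT pool 2, 0.23 in KO pool 1 and 0.46 in KO pool 2. Both KO pools lay below both WT pools, and the gap between the genotypes was larger than the gap between pools of a genotype. The difference was -0.68 ± 0.20 (SE; 95% interval -1.18 to -0.19), with an unadjusted p of 0.0157 and an adjusted p of 0.372 by limma, so the difference was not called. Without any 1 pool it lay between -0.80 and -0.57.

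Egf was dim in these livers. The KO mean lay 0.20 below the median of all probe sets and the WT mean 0.49 above it, and no fold is given. On each array about 11% of probe sets carry a value that another probe set also has. The Egf value in KO pool 1 was the most shared value of that array, held by 859 probe sets, and that in KO pool 2 was shared with 372 others. The WT values of Egf were shared with no other probe set. A further probe set, which the annotation pairs with both Egf and 6330410L21Rik and which the rule leaves out, read 0.07 and 0.03 in WT and -0.02 and -0.20 in KO, a difference of -0.16.

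Over all 4 pools, Btc showed the largest difference upward among the measured genes, an order that changed without WT pool 1 and without KO pool 1, when Adam17 stood highest. It encodes betacellulin, which binds ErbB4 as well as the EGF receptor. Btc read 1.71 in WT pool 1, 1.84 in WT pool 2 and 2.50 and 2.05 in KO pools 1 and 2, respectively. Both KO pools were above both WT pools, and KO pool 1 stood furthest from them. The difference was 0.50 ± 0.23 (SE), or 1.42-fold, with a 95% interval of -0.07 to 1.08, and limma did not call it (adjusted p = 0.549). It was 0.28 without KO pool 1 and 0.73 without KO pool 2, so the size depended on which KO pool was kept.

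Tgfa, which encodes TGF-alpha, a ligand that hepatocytes make for themselves during regeneration, did not separate by genotype. It read 3.48 and 3.64 in WT and 3.33 and 3.96 in KO. The KO pools lay on either side of the WT pools. The difference was 0.08 ± 0.27 (SE; 95% interval -0.58 to 0.75; limma, adjusted p = 0.941), and it was -0.23 without KO pool 2 and 0.40 without KO pool 1. The interval leaves room for a change of either sign.

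Hbegf encodes heparin-binding EGF, a ligand that is also a target gene of the receptor it activates. Hbegf read 0.39 and 0.64 in WT and 0.94 and 0.68 in KO. KO was higher by 0.29 ± 0.22 (SE; 95% interval -0.24 to 0.83; limma, adjusted p = 0.698), and the lower KO pool lay only slightly above the higher WT pool. Without 1 pool the difference ran from 0.16 to 0.43.

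Ereg and Epgn, which encode epiregulin and epigen, were below the median of all probe sets in both genotypes. Ereg read 0.38 and 0.22 in WT and 0.46 and 0.41 in KO, a difference of 0.13 ± 0.19 (SE; limma over all genes, adjusted p = 0.91). Its second probe set, with a lower mean, had KO below WT by 0.18, and the mean of both probe sets gave -0.026. The sign for Ereg therefore differed between its probe sets. Epgn read 0.06 and -0.04 in WT, 0.45 in KO pool 1 and -0.05 in KO pool 2, a difference of 0.19 ± 0.24 (SE; limma over all genes, adjusted p = 0.893). The pools of the genotypes overlapped in Epgn, KO pool 1 alone stood apart, and the value in KO pool 2 was shared with 689 other probe sets. Without KO pool 1 the Epgn difference was -0.06. Of the 3 measured genes of the chromosome 5 cluster, Btc alone lay above the limit for dim genes.

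Among the shedding proteins, Adam10 varied least within a genotype. Its log2 level was 5.42 and 5.35 in WT and 5.59 and 5.73 in KO, with both KO pools higher. The difference was 0.27 ± 0.19 (SE), or 1.21-fold, with a 95% interval of -0.20 to 0.75 (limma, adjusted p = 0.686). It lay between 0.20 and 0.35 without any 1 pool. The Adam10 values in WT pool 2 and KO pool 2 were shared with 12 and 4 other probe sets, respectively.

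Adam17 differed more between the WT pools than between the genotypes. Its log2 level was 4.04 in WT pool 1 and 2.80 in WT pool 2, and 3.35 and 3.94 in the KO pools, which lay between them. The gap of 1.23 between the WT pools was wider than that of 98.6% of tested genes. The difference between genotypes was 0.23 ± 0.45 (SE; 95% interval -0.88 to 1.34; limma, adjusted p = 0.899). It was 0.85 without WT pool 1 against -0.39 without WT pool 2 and -0.07 without KO pool 2, so no direction can be given for Adam17.

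Rhbdf2 was higher in both KO pools. It read 2.66 and 2.34 in WT and 3.10 and 2.70 in KO, where the lower KO pool was just above the higher WT pool. The difference was 0.40 ± 0.24 (SE), or 1.32-fold, with a 95% interval of -0.20 to 1.00 (limma, adjusted p = 0.632). Without 1 pool it ran from 0.20 to 0.60. Rhbdf1, which encodes the related iRhom1, stood at 2.85 and 3.15 in WT and 3.30 and 3.42 in KO, a difference of 0.36 ± 0.21 (SE; limma, adjusted p = 0.627). Frmd8, which encodes a protein that holds iRhoms at the cell surface, differed by 0.09 ± 0.19 (SE; limma, adjusted p = 0.904).

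**Figure D2:**
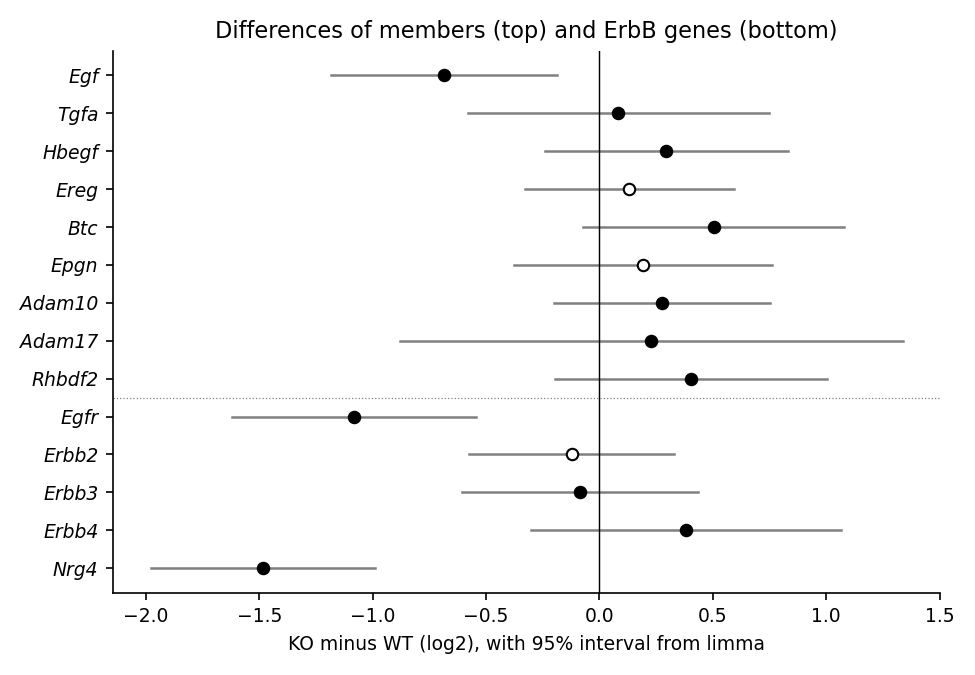
KO minus WT on the log2 scale (horizontal axis) with the 95% interval from limma, for the 9 measured genes above the dotted line and for 4 ErbB receptors and Nrg4 below it. Open circles are genes under the limit for dim genes, and of the 9 only the interval of Egf (-1.18 to -0.19) leaves out 0 before adjustment over all genes.

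The receptors of these ligands were read beside them. Egfr, the receptor that all 7 ligands bind, read 7.04 and 6.95 in WT and 5.73 and 6.10 in KO, a difference of -1.08 ± 0.22 (SE; unadjusted p = 0.00292). The Egfr value in KO pool 1 was shared with 11 other probe sets. Limma did not call Egfr with a common prior variance (adjusted p = 0.269), while a variance that follows intensity did (adjusted p = 0.0121), as it did for 136 genes (1.09% of those tested). By the latter model too, 0 of the 9 ligands and shedding proteins were called. Erbb3 differed by -0.09 ± 0.21 and Erbb4 by 0.38 ± 0.28, and Erbb2 was below the limit for dim genes.

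**Figure D3:**
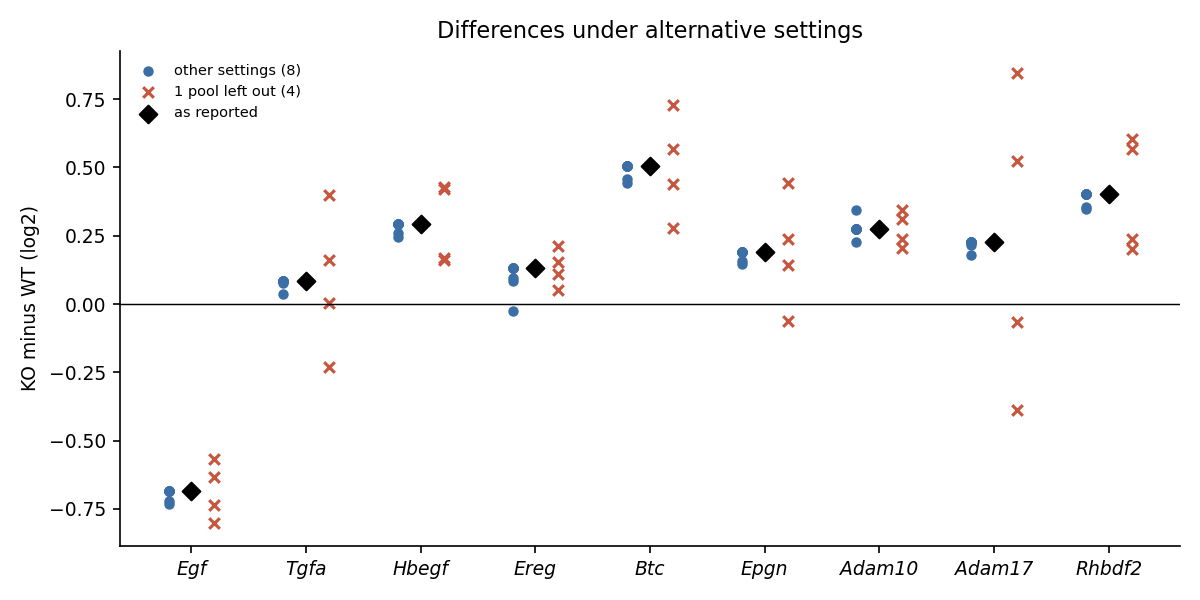
KO minus WT on the log2 scale (vertical axis) of each measured gene as reported (diamonds), with 1 of the 4 pools left out (crosses) and under 8 other settings (dots). Egf stays below 0 (-0.80 to -0.57) and Btc, Hbegf, Adam10 and Rhbdf2 above it throughout. Their pools do not overlap between the genotypes, so leaving out a pool could not turn their sign. Tgfa, Epgn and Adam17 change sign when a pool is left out and Ereg when its probe sets are averaged. Filters, variance models and the pool block cannot change a difference.

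The cellular machinery around the ligands was described by lists, in which no gene was called by limma with the common prior. Of 21 tested adaptors and signal carriers of the receptor, 0 had an unadjusted p under 0.05 in either direction, where 6.37% of all tested genes did so upward and 3.92% downward. Their median difference was 0.04, or 0.16 without WT pool 1. Stat5a (0.31 ± 0.22 SE), the kinase Akt2 (0.27 ± 0.19) and the adaptor Grb2 (0.32 ± 0.23) had the smallest p of that list.

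Among 17 tested feedback inhibitors, 2 had an unadjusted p under 0.05 (10.3% of all tested genes did), both lower in KO (3.92% of all). They were Socs4, a suppressor of cytokine signalling that acts on the EGF receptor (-0.65 ± 0.19 SE; limma, adjusted p = 0.368), and Spry4, a Sprouty inhibitor of the Ras pathway (-0.65 ± 0.21; adjusted p = 0.405). The Spry4 value in WT pool 2 was shared with 33 other probe sets. Dusp4, a phosphatase of MAP kinases, was at 0.69 ± 0.29 (limma, adjusted p = 0.499). The median of the list was 0.06, or -0.04 without WT pool 1.

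Of 21 tested immediate early and ERK-induced genes, 4 had an unadjusted p under 0.05 with KO higher and 1 with KO lower. Over all tested genes these shares were 6.37% and 3.92%. Among the 4, Egr3 passed the limit for dim genes through KO alone, as its WT mean lay 0.25 below that limit. The median of the list was 0.13, which became 0.0033 when WT pool 1 was left out and 0.25 when WT pool 2 was. The 1 with KO lower was Phlda1, which read 3.89 and 3.72 in WT and 2.42 and 2.52 in KO (-1.34 ± 0.19 SE; limma, adjusted p = 0.181). It was called with a variance that follows intensity (adjusted p = 0.0498). The transcription factors Klf6 (0.88 ± 0.21; adjusted p = 0.297) and Egr2 (0.76 ± 0.20; unadjusted p = 0.00916) had differences in the other direction, so the list did not move one way.

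Partners, traffic and inhibitors of the sheddases had 15 tested members and a median of 0.12. At an unadjusted p under 0.05, 3 were higher in KO and 0 lower (6.37% and 3.92% of all tested genes). Tspan14, a tetraspanin that carries ADAM10 out of the endoplasmic reticulum, read 2.88 and 3.88 in WT and 4.75 and 4.43 in KO (1.21 ± 0.36 SE; limma, adjusted p = 0.379). Pacs2, a sorting protein that returns ADAM17 to the surface, was at 0.67 ± 0.21 (adjusted p = 0.394). Timp3, the tissue inhibitor that blocks ADAM17, was at 0.62 ± 0.23 (adjusted p = 0.44). Tspan15 and Tspan17, further partners of ADAM10, differed by -0.01 ± 0.23 and -0.0022 ± 0.41. Leaving out WT pool 2 turned the list median to -0.13, and leaving out KO pool 1 gave 0.29.

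Other ADAM and related proteases had 12 tested members and a median of 0.01. At an unadjusted p under 0.05, 0 were lower in KO (3.92% of all tested genes) and 2 were higher (6.37%). These were Mmp7 (1.95 ± 0.35 SE; limma, adjusted p = 0.247; 0.0457 with a variance that follows intensity) and Mmp14 (0.70 ± 0.20; adjusted p = 0.364). Mmp7 was dim in WT, at 0.29 and 0.85 against 2.10 and 2.94 in KO, and its WT mean lay only 0.02 above the limit for dim genes. Bace1, the beta-secretase, had the next smallest p by limma (-0.47 ± 0.28, adjusted p = 0.625), and the metalloprotease Adam9 differed by -0.27 ± 0.19. Leaving out WT pool 2 gave a list median of -0.14, and leaving out WT pool 1 gave 0.17. The rest of the ADAM genes in the list had no p under 0.05.

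Other proteins that ADAM10 and ADAM17 cut had 21 tested members and a median of 0.33. At an unadjusted p under 0.05, 6 were higher and 2 lower in KO (6.37% and 3.92% of all tested genes). Cxcl16, a membrane-bound chemokine shed by ADAM10, read 4.38 and 4.09 in WT and 5.47 and 5.40 in KO (1.204 ± 0.21 SE; limma, adjusted p = 0.233). Cdh1, E-cadherin, was at 1.62 ± 0.28 (adjusted p = 0.234), and Il6ra, the interleukin 6 receptor, at -0.90 ± 0.22 (adjusted p = 0.312). A variance that follows intensity called these 3, at an adjusted p of 0.0197, 0.0206 and 0.0433. Tnf, the substrate that gave ADAM17 its name, was at 1.01 ± 0.25 (adjusted p = 0.318). A list of substrates says nothing of how much of each protein is cut.

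**Figure D4:**
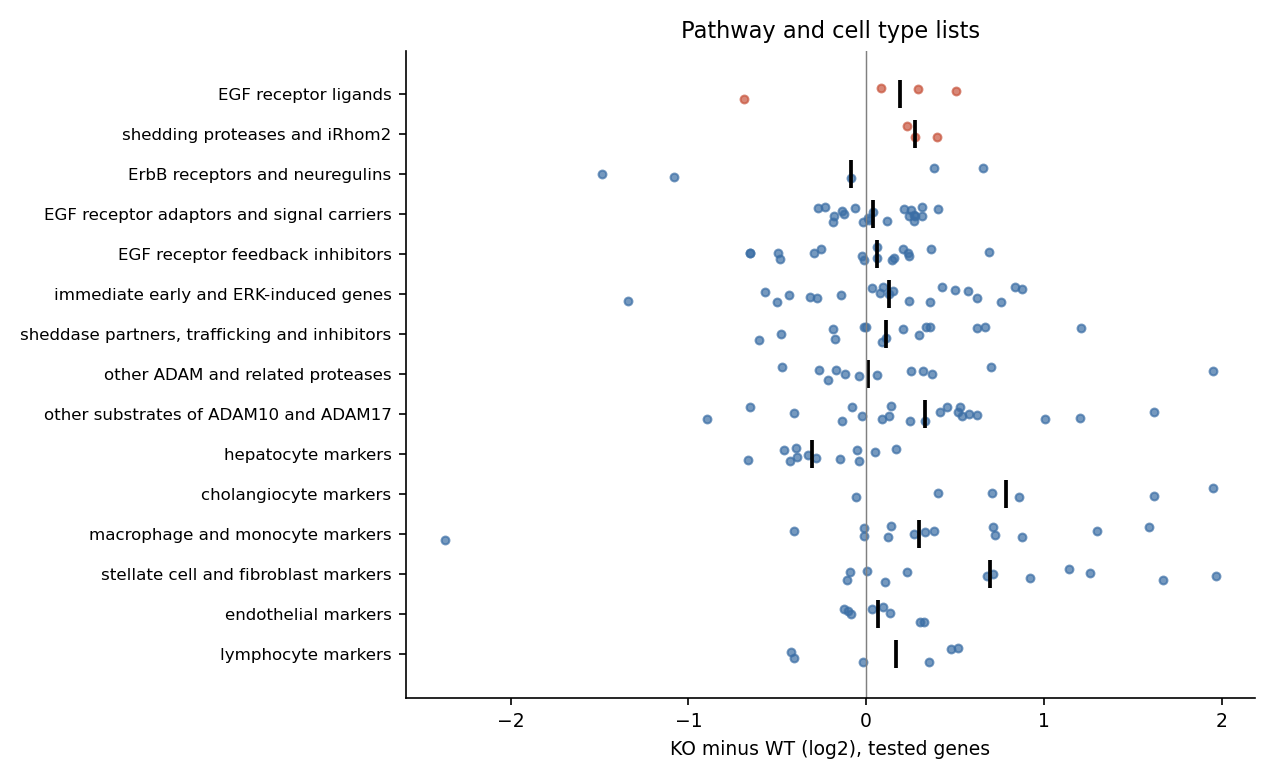
KO minus WT on the log2 scale (horizontal axis) of the tested genes of each list, with a black bar at the list median, red points for the ligands and shedding proteins and blue for all others. Red points lie between -0.68 and 0.50, within the spread of the pathway lists. The medians of cholangiocyte markers (0.79) and of stellate cell and fibroblast markers (0.70) lie furthest to the right. Vertical scatter within a row has no meaning.

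Markers of the cells that make or receive these ligands also differed between the pools. Fewer cells of a type and less RNA per cell cannot be told apart in such samples. Hepatocyte markers had a KO mean below WT in 10 of 12, with a median of -0.30, or -0.14 without KO pool 1. Their summed level (log2 of the sum of the linear values) was 13.06 to 13.10 in WT and 12.85 to 12.96 in KO. For cholangiocyte markers, 5 of 6 tested were above 0 with a median of 0.79, and the summed level of the 9 measured was 4.60 to 5.05 in WT and 5.70 to 6.28 in KO. Cdh1 and Mmp7, which had the largest differences of the 6, also stand in the substrate and protease lists. A summed level is led by its highest values. For cholangiocyte markers these were those of Cdh1, at 3.62 and 3.26 in WT and 4.76 and 5.36 in KO. The cholangiocyte median was 0.46 without KO pool 2, 0.47 without WT pool 2 and 1.22 without KO pool 1. Of the bile duct keratins, Krt19 differed by -0.06 and Krt7 by 0.40 at levels near the limit for dim genes. Krt7 passed that limit through KO alone, and its value in KO pool 1 was shared with 300 other probe sets.

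Macrophage and monocyte markers were above 0 in 10 of 14, with a median of 0.30 and a summed level of 7.88 to 7.93 in WT and 8.25 to 8.26 in KO. The largest difference of that list was downward, in the scavenger receptor Marco, which read 2.63 and 3.53 in WT and 0.76 and 0.66 in KO. A variance that follows intensity called Marco (-2.37; limma, adjusted p = 0.0181), and beyond the genes named above it called the fibroblast genes Dpt (1.97; 0.00369) and Pdgfra (1.67; 0.0294) and the hepatocyte gene Cps1 (-0.39; 0.0427). Stellate cell and fibroblast markers were above 0 in 10 of 12, with a median of 0.70 and a summed level of 8.52 to 8.66 in WT and 8.97 to 9.17 in KO. Dpt, Pdgfra, Lum, Pdgfrb, Col1a1, Col1a2 and Col3a1 differed by 0.68 to 1.97. Acta2 (0.01), Lrat (0.11), Reln (-0.11) and Des (-0.09) differed little, so the list did not move as a whole. Dcn, which had the highest values in that sum, differed by 0.23. Endothelial markers had a median of 0.06 over 8, or -0.09 without KO pool 2, and lymphocyte markers one of 0.17 over 6, or -0.045 without KO pool 1. The summed level of lymphocyte markers was 4.18 to 4.34 in WT and 4.19 to 4.33 in KO. Of 10 neutrophil, mast cell and basophil markers, Kit alone was above the limit for dim genes, and of 8 measured markers of pancreas, salivary gland and kidney, Cela1 and Klk1 were. The part of these shifts in the levels of Egf, Btc, Egfr, Cdh1 or any other gene named here was not tested.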

How the data were processed

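Pooled liver RNA of Nrg4 KO and WT mice (2 pools each) was measured. The authors deposited log2 expression values of 41345 probe sets; oligo, RMA and limma are named in the submitters' processing notes, with versions, order, build and annotation not given in the sources used here. Nothing was renormalized. Through the platform annotation, 23521 probe sets had 1 symbol, and the probe set with the highest mean over the arrays stood for each of 22180 genes. Genes whose mean reached the median of all probe sets were tested in R 4.3.3 by limma 3.58.1 (eBayes, no covariate, Benjamini-Hochberg adjustment), after a test on simulated data. Members below that limit came from a fit of all genes. No protein sequences were used here.

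The members and gene lists were chosen with earlier results of these data known. Named in the text were all members, the ErbB receptors and Nrg4. Of each other pathway list, any member called was named, or else the 3 with the smallest p. Rhbdf1, Frmd8, Tspan15, Tspan17, Adam9, Tnf and Egr3 were added after their values were seen. The alternatives were no filter and a stricter filter (75th percentile), quantile normalization, median centring, an intensity-dependent or robust variance, the mean of probe sets, the pool number as a block, and leaving out each pool. No array date or slide was used, so no batch was tested, and the number of arrays limits the precision.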

Additional observations from a re-analysis of the deposited data

How the results depend on the processing

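Under 12 alternative settings, 0 of the 9 measured ligands and shedding proteins were called by limma, and 103 of 108 differences kept their sign. The 5 that did not were Ereg with the mean of its probe sets (-0.0259), Adam17 without WT pool 2 (-0.39) and without KO pool 2 (-0.07), Tgfa without KO pool 2 (-0.23) and Epgn without KO pool 1 (-0.0619). Many of the kept signs could not have changed. The filters, the variance models and the pool block leave each difference as it is, and the mean of probe sets could move Ereg alone. Nor can leaving out 1 pool turn the sign where the pools of the genotypes do not overlap. Leaving out 1 pool, the differences ran from -0.80 to -0.57 for Egf, -0.23 to 0.40 for Tgfa, -0.0619 to 0.445 for Epgn and -0.39 to 0.85 for Adam17. The count of 6 called genes was 136 with a variance that follows intensity, 2 with the pool number as a replicate block and 0 without any 1 pool, where 906 to 1314 genes had an unadjusted p under 0.05 by limma. Deviations of pools with the same number were close to uncorrelated (r = -0.04 across genes, which are not independent). With 2 pools a genotype, that value cannot tell whether such pools shared a processing step. The block led to no call of a member. The adjusted p of Egf lay between 0.34 and 0.719 over the alternatives. With 2 pools a genotype and levels near the median of all probe sets, changes of Egf, Hbegf, Ereg and Epgn are poorly resolved.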
